A study of Rattus norvegicus with 30 samples.

Results

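The promoters at the head of the deposited thalamus promoter table were followed through 30 libraries of methyl-binding domain sequencing (MBD-seq). They are the windows of ENSRNOG00000050808, ENSRNOG00000050740, ENSRNOG00000023687 and ENSRNOG00000004208, which fill rows 1 to 4 of the 22307 rows of the table. From row 6 on the table followed the order of the gene body table, and its first 5 rows stood outside that order. The files do not state why they come first. The 4 windows were therefore treated as chosen on the thalamus comparison of traumatic brain injury (TBI) with sham operation, and their thalamus values are a description without a test. The Ensembl gene identifiers were not matched to symbols or to promoter sequences in the sources used here, so neither names, roles nor sequences are given.

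Methylation of cytosines in CpG sites of promoters is commonly associated with low transcription of the gene. In MBD-seq a methyl-CpG-binding protein pulls down methylated DNA fragments, which are then sequenced. How many reads a window collects depends on how methylated it is, on how many CpG sites it has and on how well the capture worked, so no percentage of methylation is obtained. The thalamus is connected with the cortex that is injured by lateral fluid-percussion, and slow secondary degeneration and inflammation are known to occur there after such an injury.

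The libraries came from 10 adult male Sprague-Dawley rats, 3 months after the operation. Rats 6 to 10 received lateral fluid-percussion injury, and rats 1 to 5 were sham-operated with anaesthesia and surgery but without the impact. Each rat gave perilesional cortex, ipsilateral hippocampus (a dissection that the labels describe as dentate gyrus including CA3) and ipsilateral thalamus. Each group thus had 5 animals per tissue. The samples were pieces of whole tissue, so a change in the mix of cells and a change in the methylation of a cell type cannot be told apart.

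A thalamus library held 2675177 to 4227800 promoter counts, a cortex library 1862708 to 3992056 and a hippocampus library 1430875 to 2440662. Values are counts scaled to 1000000 promoter counts per library (CPM). The thalamus library of rat 6 stood apart: the 5% of windows with the highest counts held 52.8% of its counts, against 25.6% to 39.8% in the other thalamus libraries. The thalamus comparisons of TBI with sham at the 4 windows are therefore given with and without rat 6. In cortex the same share was 57.0% in rat 10, 47.1% in rat 6 and 40.9% in rat 1, and 24.3% to 36.4% in the other rats. In hippocampus it ran from 27.3% in sham rat 5 to 51.8% in sham rat 1, with 48.9% in rat 6 and 44.8% in rat 10. The methods of the study point to another sequencer for the thalamus than for the other tissues, whereas the labels name 1 instrument for all. A difference between thalamus and another tissue and a difference between instruments therefore cannot be told apart.

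The window of ENSRNOG00000050808 carried much captured DNA and was lower in most TBI rats. In sham thalamus, rats 1 to 5 gave 85.9, 134, 118, 157 and 169 CPM. In TBI thalamus, rats 6 to 10 gave 27.0, 96.0, 41.8, 135 and 63.1 CPM. By CPM, rats 6, 8 and 10 lay below every sham rat, whereas rats 7 and 9 lay within the sham range, so the groups overlapped. On TMM-scaled log2 CPM, rat 7 (6.38) lay just below sham rat 1 (6.39), and rat 8 (5.16) lay below rat 6 (5.19). Rat 9 stayed within the sham range. Sham rats averaged 133 ± 32.8 CPM, TBI rats 72.6 ± 43.6 CPM (SD, n = 5 each), and TBI rats without rat 6 84.1 ± 40.8 CPM (n = 4). By CPM, at least 3 TBI libraries below every sham library were found at 4.99% of all thalamus windows. The fitted log2 fold change of TBI over sham was −0.84 (SE 0.27) with all rats and −0.70 (SE 0.20) without rat 6. Its mean over the 10 thalamus libraries was 103 CPM, above that of 97.1% of all windows, where the median was 30.1 CPM.

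ENSRNOG00000050740 repeated these values almost count for count. Sham rats 1 to 5 gave 89.0, 137, 121, 163 and 179 CPM in thalamus. TBI rats 6 to 10 gave 28.1, 98.9, 44.1, 143 and 65.9 CPM. By CPM, the same 3 TBI rats were lowest and the groups overlapped. On TMM-scaled log2 CPM, rat 7 (6.42) again lay just below sham rat 1 (6.44). Sham rats averaged 138 ± 35.1 CPM, TBI rats 75.9 ± 45.7 CPM, and TBI rats without rat 6 87.8 ± 42.8 CPM. The log2 fold change was −0.83 (SE 0.27), and −0.69 (SE 0.20) without rat 6. The count of ENSRNOG00000050808 was at or below that of ENSRNOG00000050740 in all 30 libraries, at 94.6% to 97.6% of it in thalamus, from 95.5% of it to equality in cortex, and at 88.8% to 98.1% in hippocampus. The gene body counts of both identifiers were equal in each of the 30 libraries. These gene body counts were small, with 17 in the sham and 10 in the TBI thalamus libraries together. The 2 identifiers lie 18 rows apart in the gene body table. Whether they share reads through overlap or through near-identical copies was not tested, and in what follows they are not counted as separate observations.

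ENSRNOG00000023687 was the one window of the 4 that was higher in TBI thalamus, at a very low level. Sham rats 1 to 5 gave 2.16, 5.83, 1.57, 2.62 and 5.30 CPM, from 5 to 17 reads each. TBI rats 6 to 10 gave 1.18, 8.87, 10.8, 6.92 and 12.0 CPM. Rat 6, with 5 reads (exact 95% Clopper-Pearson interval 0.384 to 2.76 CPM), was the lowest of all 10 rats by CPM. On TMM-scaled log2 CPM, sham rat 3 (0.60) lay below rat 6 (0.81). The other 4 TBI rats lay above every sham rat, as at least 4 TBI libraries did by CPM at 1.88% of all windows. Without rat 6 the groups did not overlap, which held for 1.8% of all windows in this direction. Sham rats averaged 3.50 ± 1.93 CPM, TBI rats 7.95 ± 4.25 CPM, and TBI rats without rat 6 9.64 ± 2.23 CPM. The log2 fold change was 1.18 (SE 0.46) with all rats and 1.41 (SE 0.34) without rat 6, so that leaving out rat 6 moved it away from 0, and that of the other 3 windows towards 0. Only 5.52% of all windows had a mean in thalamus as low as or lower than this one. Its gene body held 1 read in the 10 thalamus libraries together.

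ENSRNOG00000004208 was of intermediate level. Sham rats 1 to 5 gave 13.0, 36.1, 30.7, 20.9 and 31.5 CPM in thalamus. TBI rats 6 to 10 gave 7.57, 18.4, 15.7, 14.9 and 12.6 CPM. All TBI rats lay below sham rats 2 to 5, but sham rat 1 lay among them, so the groups overlapped with and without rat 6. Sham rats averaged 26.4 ± 9.33 CPM, TBI rats 13.8 ± 4.07 CPM, and TBI rats without rat 6 15.4 ± 2.40 CPM. The log2 fold change was −0.88 (SE 0.23), and −0.83 (SE 0.20) without rat 6. Of the 4 windows it was the one on which rat 6 weighed least. Its gene body held no read in thalamus.

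**Figure D1:**
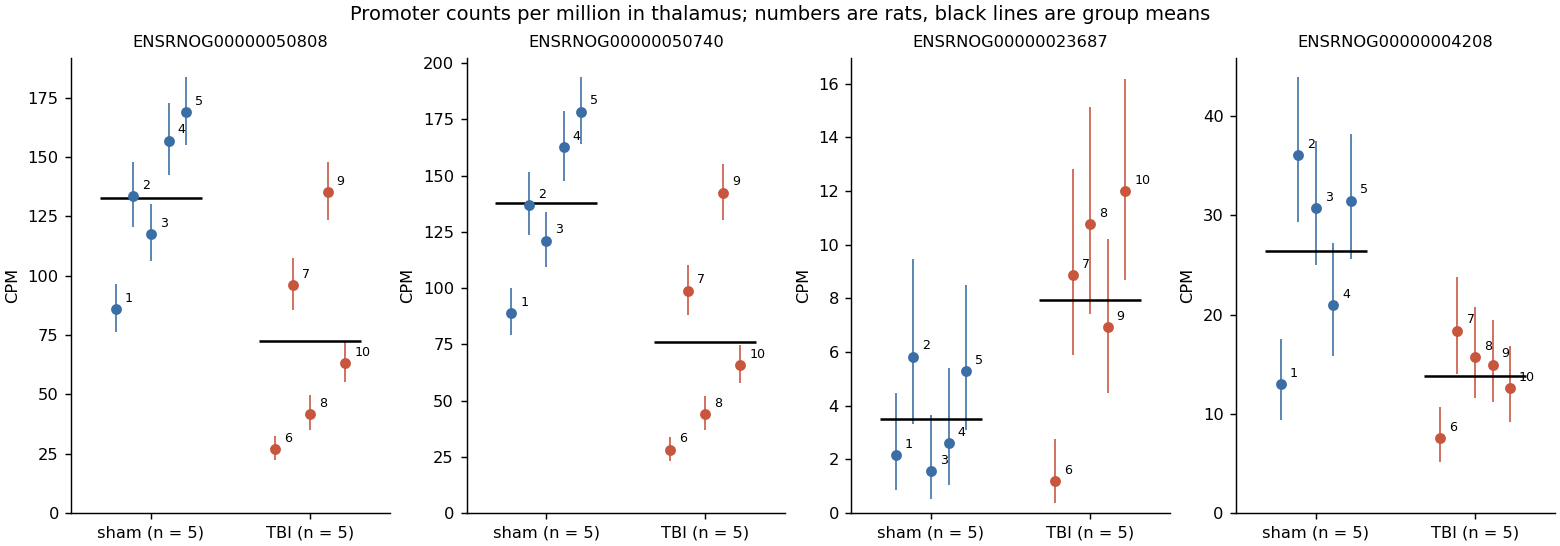
Promoter CPM in thalamus (vertical axis, from 0) for the 5 sham and 5 TBI rats, 1 panel per identifier; points are libraries numbered by rat, bars are exact 95% counting intervals and black lines are group means. By CPM, rat 6 is the lowest library in each of the 4 panels, and sham and TBI libraries overlap in every panel.

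Across the whole thalamus table the quasi-likelihood test of edgeR called 0 of 21894 windows (0%) at an adjusted p under 0.05, and 198 had an unadjusted p under 0.05. DESeq2 called 0 as well. Without rat 6, edgeR again called 0 of 21978, and 1267 had an unadjusted p under 0.05. The fold changes of the 4 windows were at the ends of the distribution: ENSRNOG00000023687 had the highest of the tested windows, and the other 3 the lowest. Since the rows are taken as chosen on this contrast, nothing is read from these positions. Row 5, just outside, was ENSRNOG00000007472, with 0.618, 1.46, 0.941, 2.62 and 0.935 CPM in sham and 1.66, 6.34, 3.27, 3.60 and 3.63 CPM in TBI rats. Row 6, where the table order begins, was ENSRNOG00000046319, an identifier with 6 rows, with 17.4 to 26.6 CPM in sham and 20.2 to 31.4 CPM in TBI rats 7 to 10, and 3.07 CPM in rat 6.

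Cortex and hippocampus were then examined for the same difference. For the pair it had the same sign in each tissue. In cortex, ENSRNOG00000050808 gave 83.6, 162, 53.7, 128 and 203 CPM in sham rats 1 to 5 and 27.0, 175, 39.6, 132 and 33.1 CPM in TBI rats 6 to 10. In hippocampus it gave 59.8, 118, 46.7, 87.4 and 210 CPM in sham and 25.3, 99.9, 37.5, 84.0 and 40.6 CPM in TBI rats. By CPM, rats 6, 8 and 10 lay below every sham rat in these tissues too, and rats 7 and 9 lay within the sham range. On TMM-scaled log2 CPM, rat 10 (5.54) lay just above sham rat 3 (5.52) in cortex, so this order depended on the scaling. By CPM, at least 3 TBI libraries below every sham library were found at 3.2% of all windows in cortex and 4.64% in hippocampus. The log2 fold change was −0.68 (SE 0.45, 95% interval −1.63 to 0.28) in cortex and −0.77 (SE 0.32, 95% interval −1.45 to −0.09) in hippocampus, with an edgeR adjusted p of 1 in both. The unadjusted p was 0.153 in cortex and 0.0287 in hippocampus by the same edgeR fits, in which 1.6% of hippocampus windows were lower in TBI at an unadjusted p under 0.05. Without rat 6 the hippocampal value was −0.61 (SE 0.33). ENSRNOG00000050740 had −0.70 (SE 0.46) in cortex and −0.74 (SE 0.33) in hippocampus, with adjusted p again 1. These tests failed the correction, and they were not independent of the thalamus values, as the next comparison shows.

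The rats kept their order at the pair from tissue to tissue. Rat 5 was the highest and rats 6, 8 and 10 were among the 4 lowest in all 3 tissues, and sham rat 3 was the lowest sham rat in cortex and hippocampus. On TMM-scaled log2 CPM over the 10 rats, cortex and hippocampus had Pearson's r = 0.97 and Spearman's rho = 0.96 for ENSRNOG00000050808, and r = 0.98 and rho = 0.99 for ENSRNOG00000050740. The permutation p of each r was 2e-05, the smallest that 100000 permutations can give, and that of rho was 8e-05 and 2e-05 (two-sided, 4 windows examined, p not adjusted). Leaving out rats 6 and 8, the farthest from the cortex median, left r at 0.96 and 0.97. The cortex values had a gap of 0.85 log2 units between rats 3, 6, 8 and 10 and the other 6 rats, and within those 6 rats r was 0.91 for ENSRNOG00000050808 and 0.94 for ENSRNOG00000050740. After each rat was set against the mean of its own group, r was 0.97 for both, so the relation was as strong with the difference between TBI and sham taken out.

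Over 18577 windows, the correlation of such deviations between cortex and hippocampus had a median of 0.11 and was at least 0.8 at 0.414% of windows. The windows of the pair, taken as 1 signal, had the highest value. It was not particular to the pair: among the 50 other tested identifiers within 20 rows of it in the gene body table, the median was 0.45, 3 were at or above 0.8 and the highest was 0.91. Against thalamus, r of the deviations was 0.84 with cortex and 0.83 with hippocampus for ENSRNOG00000050808, and 0.85 and 0.82 for ENSRNOG00000050740. The medians over all windows were 0.32 with cortex and −0.09 with hippocampus. Values at least as high as those of ENSRNOG00000050808 were found at 310 of the 18577 windows with cortex and at 49 with hippocampus. Without rat 6, r with thalamus (not set against group means) was 0.81 for cortex and 0.81 for hippocampus at ENSRNOG00000050808. Besides the pair, 1 window also reached 0.8 in all 3 pairs of tissues (0.0161% of windows with the pair included), and its lowest r of 0.84 was above the 0.83 and 0.82 of the pair. The spread between rats was also wide. The highest rat exceeded the lowest 6.26-fold in thalamus, 7.53-fold in cortex and 8.29-fold in hippocampus for ENSRNOG00000050808. In cortex its coefficient of variation was 47.4% among sham rats and 83.3% among TBI rats, against medians over all windows of 25.2% and 35.1%.

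**Figure D2:**
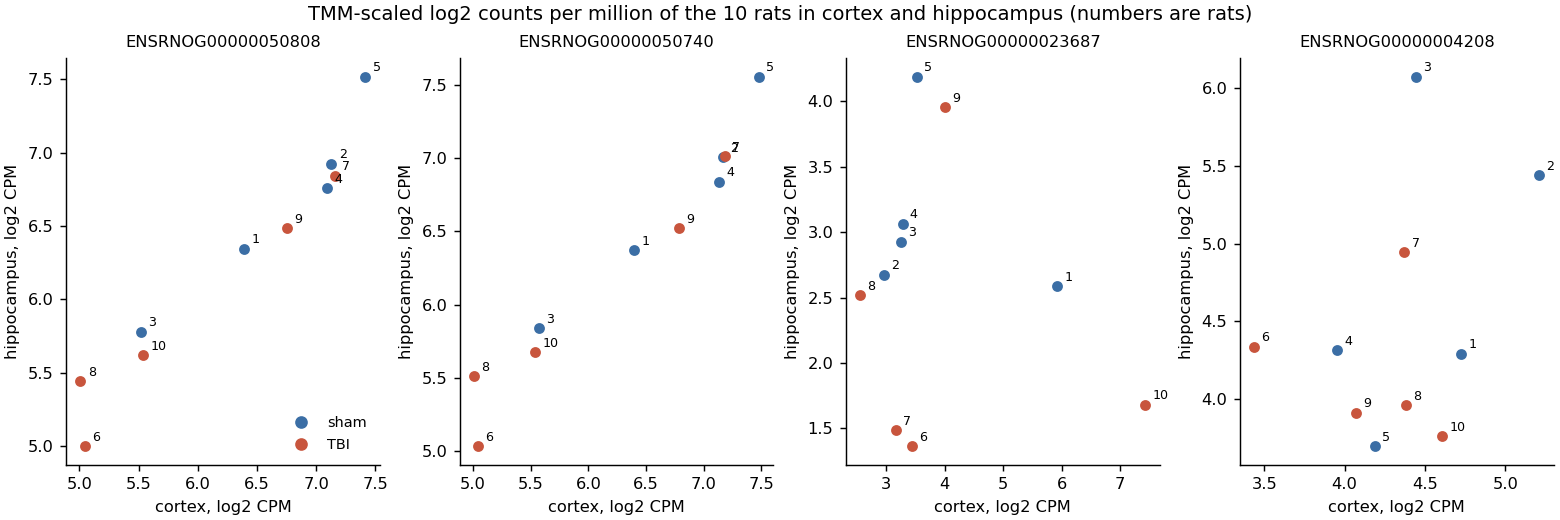
TMM-scaled log2 CPM of each rat in cortex (horizontal axis) and hippocampus (vertical axis), 1 panel per identifier; points are the 10 rats, numbered, in blue for sham and red for TBI. The points of the pair lie close to a line (r of 0.97 and 0.98), with sham and TBI rats mixed along it, and those of the other windows do not.

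Correlations between tissues were lower at the other 2 windows. Between cortex and hippocampus, r was −0.22 (rho 0.13, permutation p of r 0.578 and of rho 0.734) for ENSRNOG00000023687 and 0.36 (rho 0.18, permutation p of r 0.309 and of rho 0.633) for ENSRNOG00000004208. Without the 2 rats farthest from the cortex median these became 0.44 and 0.16. Between thalamus and hippocampus, as a description, ENSRNOG00000004208 had r = 0.55 (0.42 on deviations from group means, 0.85 without rats 2 and 5, 0.58 without rat 6). The median over all windows was −0.07 there, and 746 of 18577 windows had an r as high. Between thalamus and cortex its r was 0.45, with a median of 0.30 and 6150 windows as high. On deviations from group means that r was 0.29, against a median of 0.32. ENSRNOG00000023687 had r = −0.06 between thalamus and hippocampus and 0.17 between thalamus and cortex.

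The fitted sign of ENSRNOG00000023687 differed between tissues and, in cortex, turned with 1 rat. In cortex, sham rats 1 to 5 gave 60.7, 8.74, 10.9, 8.87 and 13.4 CPM and TBI rats 6 to 10 gave 8.74, 10.8, 7.02, 19.3 and 123 CPM. Sham rat 1 and TBI rat 10 stood far above all others, and the remaining rats of both groups overlapped between 7.02 and 19.3 CPM. The log2 fold change was 1.06 (SE 0.80, edgeR adjusted p = 1), it was −0.92 without rat 10 and 0.15 without rats 1 and 10. In hippocampus, sham rats gave 4.14, 5.91, 6.25, 6.54 and 20.7 CPM and TBI rats gave 1.77, 2.10, 4.74, 14.4 and 2.46 CPM, from 3 reads upwards. By CPM, 3 TBI rats lay below every sham rat here. On TMM-scaled log2 CPM, TBI rat 8 (2.52) also lay below the lowest sham rat, rat 1 (2.59). The log2 fold change was −0.65 (SE 0.50, edgeR adjusted p = 1). It was −0.19 without rat 5 and −1.45 without rat 9. The difference between the cortex and hippocampus effects, taken per rat, was 1.22 log2 units (exact two-sided permutation p = 0.421, 252 arrangements, added after the data were seen), so the 2 tissues were not shown to differ.

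ENSRNOG00000004208 was lower on average in TBI in each tissue. In cortex, sham rats 1 to 5 gave 26.2, 42.7, 25.4, 14.3 and 21.5 CPM and TBI rats 6 to 10 gave 8.74, 25.1, 25.6, 20.3 and 17.3 CPM, and the groups overlapped. In hippocampus, sham rats gave 14.2, 42.0, 57.2, 15.9 and 14.6 CPM and TBI rats gave 15.9, 26.6, 13.3, 13.9 and 11.1 CPM. Sham rats 2 and 3 stood above all others there, and the remaining sham rats lay among the TBI rats. The log2 fold change was −0.36 (SE 0.25, 95% interval −0.90 to 0.17) in cortex and −0.82 (SE 0.38, 95% interval −1.61 to −0.03) in hippocampus, with an edgeR adjusted p of 1 in both. The unadjusted edgeR p was 0.172 in cortex and 0.0432 in hippocampus. In hippocampus 1.6% of all windows were lower in TBI at an unadjusted p under 0.05. The hippocampal value was −0.36 without rat 3, and the cortex value was −0.14 without rat 2 and −0.24 without rat 6. Rats 2 and 3 were also among the 3 highest rats of this window in thalamus.

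**Figure D3:**
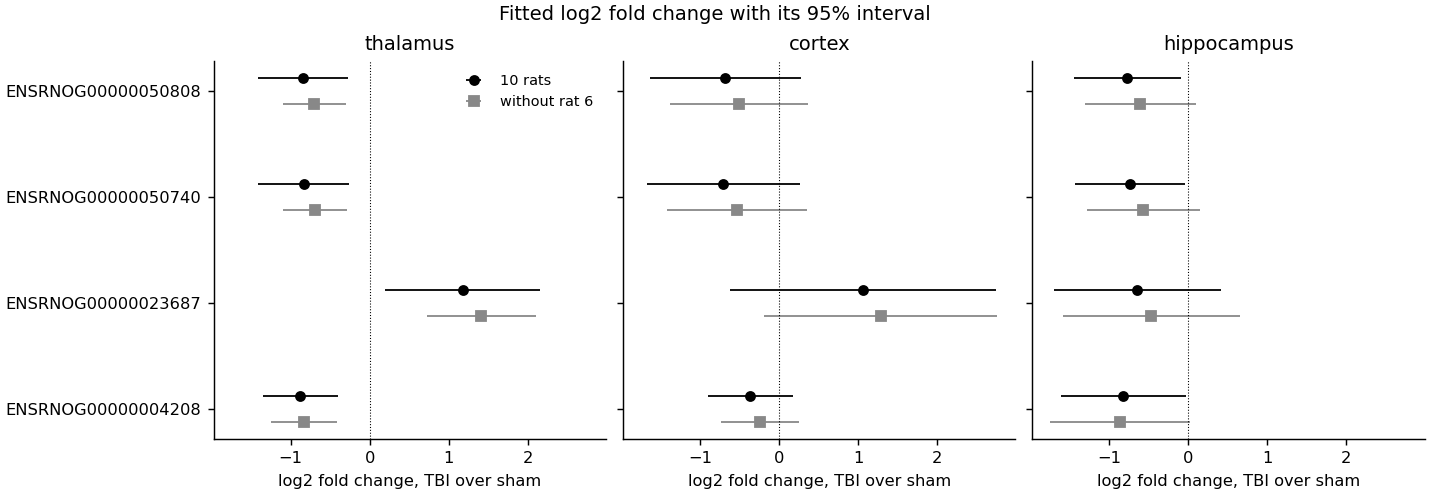
Fitted log2 fold change of TBI over sham (horizontal axis) with its 95% interval for the 4 identifiers in thalamus, cortex and hippocampus; black circles use 10 rats and grey squares leave out rat 6. The thalamus values, on which the rows are taken as chosen, are a description; in cortex and hippocampus every adjusted p was above 0.7.

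The levels of the 4 windows were next compared between tissues, over the 10 rats of each. For the pair no tissue stood out. ENSRNOG00000050808 had 103 ± 48.2 CPM in thalamus, 104 ± 64.8 CPM in cortex and 80.9 ± 54.5 CPM in hippocampus (SD, n = 10). The fitted log2 difference was 0.00 (95% interval −0.57 to 0.58) for thalamus over cortex, 0.08 (−0.50 to 0.66) for thalamus over hippocampus and −0.08 (−0.66 to 0.50) for hippocampus over cortex, with edgeR adjusted p of 0.997, 0.825 and 0.824. With the rat as a block the intervals narrowed to −0.17 to 0.42, −0.16 to 0.43 and −0.31 to 0.29, and no call changed. ENSRNOG00000050740 behaved alike, at 107 ± 50.4, 106 ± 67.4 and 85.0 ± 56.7 CPM. ENSRNOG00000004208 had 20.1 ± 9.50 CPM in thalamus, 22.7 ± 9.05 CPM in cortex and 22.5 ± 15.3 CPM in hippocampus, and its largest fitted difference was −0.47 for thalamus over hippocampus (SE 0.23, edgeR adjusted p = 0.0839).

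ENSRNOG00000023687 was called between tissues. It had 5.72 ± 3.90 CPM in thalamus (median 5.56), 6.90 ± 6.05 CPM in hippocampus (median 5.33) and 27.2 ± 37.3 CPM in cortex (median 10.9). Cortex exceeded thalamus in 9 of 10 rats and hippocampus in 9 of 10 rats. The log2 difference was −2.52 (SE 0.51, edgeR adjusted p = 0.000685) for thalamus over cortex, where edgeR called 19.1% of all windows, and −1.88 (SE 0.52, adjusted p = 0.00316) for hippocampus over cortex, where it called 61%. Without rat 6 these were −2.54 and −1.91. The value for thalamus over hippocampus was −0.64 (SE 0.57, adjusted p = 0.341), where 56.6% of all windows were called. Without rats 1 and 10 neither call held, at −1.07 (edgeR adjusted p = 0.0626) for thalamus over cortex and −0.23 (adjusted p = 0.623) for hippocampus over cortex. Calls over all windows fell as well, for thalamus over cortex from 3555 to 1858. Thalamus over cortex stayed called without either rat alone, whereas hippocampus over cortex was −0.81 (adjusted p = 0.103) without rat 10 alone. In the cortex libraries of rats 1 and 10 the share of counts in the highest windows was also raised, at 40.9% and 57.0%. In the cortex of rat 6 that share was 47.1%, but ENSRNOG00000023687 had only 8.74 CPM. The part of this share in the result was not tested.

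**Figure D4:**
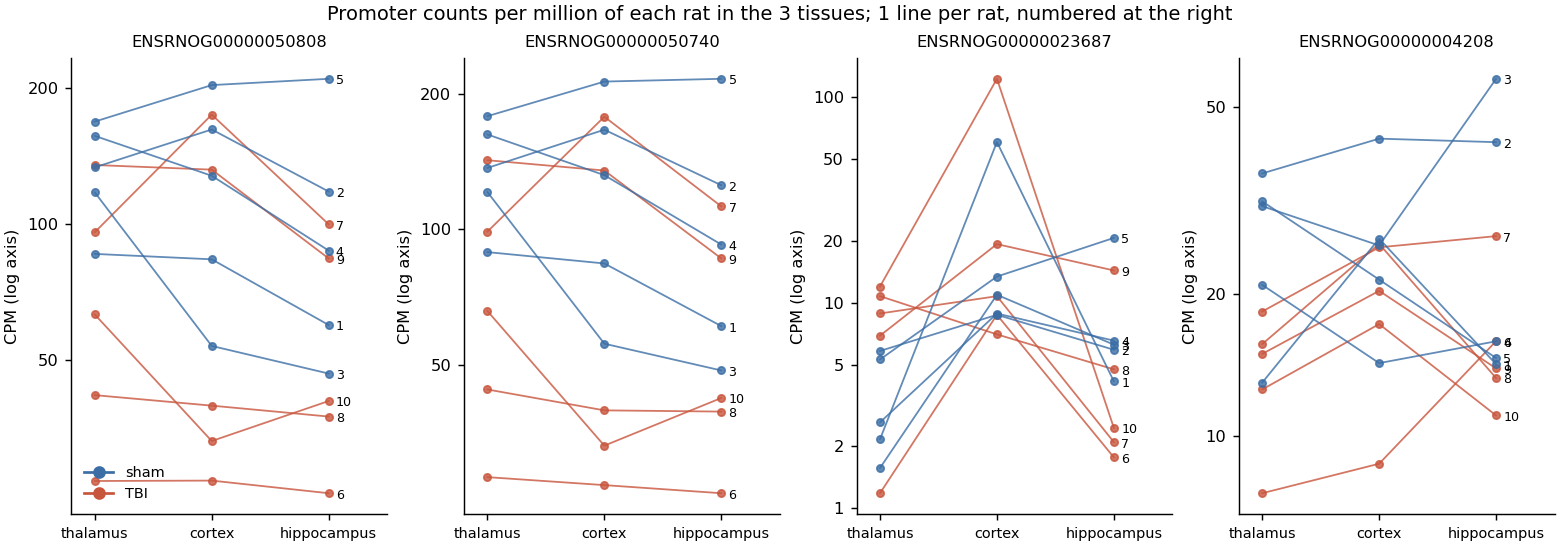
Promoter CPM (vertical log axis) of each rat in thalamus, cortex and hippocampus, 1 line per rat, in blue for sham and red for TBI, and 1 panel per identifier. The lines of the pair run mostly side by side, with rat 6 lowest throughout by CPM, whereas ENSRNOG00000023687 peaks in the cortex of rats 1 and 10 at 60.7 and 123 CPM.

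Windows with the most similar pattern were sought over the 30 libraries. They were picked by these same values, so the high and low rats they share with a window are a description only. The nearest to each of the pair was the other, with a root mean square difference of 0.033 log2 units. The next was ENSRNOG00000039404 for both (0.30 from ENSRNOG00000050808 and 0.31 from ENSRNOG00000050740, r = 0.95 over 30 libraries of 10 rats), which lies 2 and 16 rows from them in the gene body table. It gave 93.1 to 165 CPM in sham thalamus, and 34.1, 108, 68.2, 143 and 87.4 CPM in TBI rats 6 to 10, with rats 6 and 8 the lowest. For ENSRNOG00000023687 the nearest were ENSRNOG00000009629 (0.83, r = 0.82) and ENSRNOG00000033162 (0.83, r = 0.80), 15212 and 14331 rows away in the table. Both had their highest cortex value in rat 10, at 89.7 and 67.6 CPM, and the next highest in rat 1, at 27.0 and 34.4 CPM. As the cortex of these rats held the peaks of ENSRNOG00000023687, the choice by pattern favoured such windows. For ENSRNOG00000004208 the nearest, ENSRNOG00000022586 and ENSRNOG00000005874 (both 0.51, r = 0.62 and 0.57), were hardly nearer than its own root mean square deviation of 0.62.

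Because the nearest identifier lay close to the pair in the gene body table, the 50 other tested identifiers within 20 rows of either were examined. The files give no coordinates for the rows. Over the whole table, profiles of tested identifiers 1 row apart had a median r of 0.15, against 0.059 at 20 rows and 0.023 at 1000 rows. The nearby identifiers moved with ENSRNOG00000050808 over the 10 rats, with a median r of 0.81 in thalamus, 0.60 in cortex and 0.73 in hippocampus, against 0.10, 0.046 and 0.043 over all windows. Of the 50, 49 had a lower mean log2 CPM in TBI than in sham in thalamus, 45 in cortex and 49 in hippocampus, where 58.8%, 55.5% and 46% of all windows did. As the 50 moved with ENSRNOG00000050808 over the same 10 rats, these counts are not separate observations. That window was taken as chosen on the thalamus contrast, so the thalamus count is a description only.

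The size of this difference in the nearby rows depended on single rats. The median TBI-minus-sham difference of the 50 was −0.57 log2 units in thalamus, −0.25 in cortex and −0.54 in hippocampus, against −0.03, −0.03 and 0.02 over all windows. Without rat 6 it was −0.28 in thalamus (39 of 50 lower) and −0.52 in hippocampus (48 of 50 lower), but 0.11 in cortex (19 of 50 lower), where 51.9%, 43% and 46.9% of all windows were lower. In hippocampus sham rat 5 stood 1.67 log2 units above the mean of the 10 rats, by the median of the 50, and without it the difference was −0.26 (44 of 50 lower). In cortex it was −0.16 without rat 1 and −0.13 without rat 5. Rat 6 minus the median of the other rats was −1.71 log2 units in thalamus, −1.77 in cortex and −0.57 in hippocampus by the median of the 50, against −0.11, −0.10 and −0.09 over all windows. For ENSRNOG00000050808 it was −1.50, −1.71 and −1.49, so that in hippocampus rat 6 was lower at the pair than at its neighbours. The pair departed from its neighbours in rat 4 of the cortex, where ENSRNOG00000050808 stood at 0.79 against its own mean and the neighbours at −0.51. It also did so in rat 10 of the cortex, at −0.77 against 0.21.

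**Figure D5:**
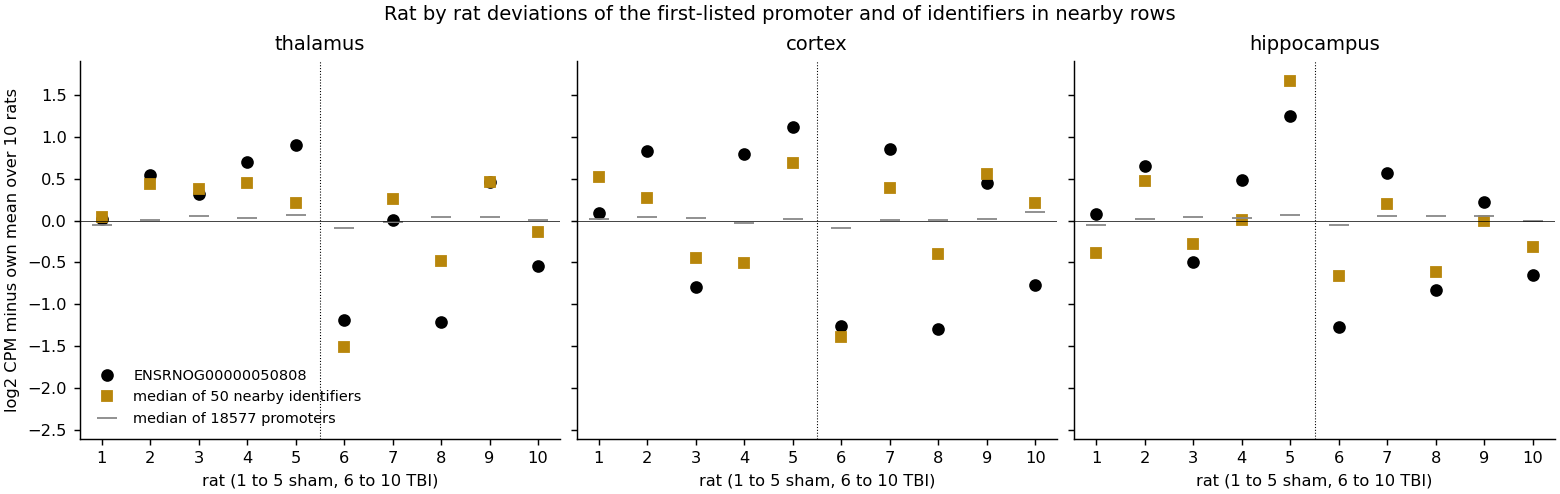
Log2 CPM of each rat minus the mean over the 10 rats (vertical axis) in 3 tissues; black circles are ENSRNOG00000050808, gold squares the median of the 50 identifiers within 20 rows and grey dashes the median of 18577 promoters. Rat 6 and rat 8 lie below 0 for both the window and its neighbours in each tissue, while the median of all promoters stays near 0.

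Rows near the other windows were examined in the same way. For ENSRNOG00000023687 the mean log2 difference in thalamus was 1.04, and that of the 16 tested identifiers within 20 rows ranged from −0.24 to 0.20. For ENSRNOG00000004208 it was −0.84, and that of 29 such identifiers ranged from −0.38 to 0.26.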

How the data were processed

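Methylated DNA of 30 libraries (10 rats, 3 tissues) was captured with a methyl-binding domain kit and sequenced. The authors aligned reads to the Rnor_5.0 genome with STAR, splicing switched off, and deposited whole-number counts per promoter window and per gene body, with no normalization; per the labels, R 3.1.0 was used. A promoter window ran from 5000 bp before to 200 bp after a transcription start. The authors' exon counts were not used.

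CPM was computed as a window's count scaled to 1000000 promoter counts per library. In R 4.3.3, TBI was compared with sham in each tissue, and tissues were compared over the 30 libraries, by the quasi-likelihood test of edgeR 4.0.16. Rows were filtered by filterByExpr (minimum count 10, minimum total count 15), scaled by TMM, and p-values were adjusted by Benjamini-Hochberg over all rows tested, with a threshold of 0.05. The tissue comparisons held the 18577 identifiers that had 1 row per table and passed the filter. Rats were followed across tissues on TMM-scaled log2 CPM with a pseudocount of 0.5 added to the count. Alternatives were DESeq2 1.42.0, library totals, every row with at least 1 count, an exact test with 1 common dispersion, the rat as a block, and leaving out each rat. Leaving out rats 1 and 10 together, the relation of rats across tissues, the nearby rows and the cortex-minus-hippocampus test were added after the data were seen. The fits were tested on simulated data. Python 3.11.15, pandas 2.3.3, scipy 1.17.1 and matplotlib 3.10.9 were used for tables and figures.

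The 4 promoters and the tests were chosen with earlier results of these data known. The named identifiers were these 4, the following 2 rows of the thalamus table as values only, and for each of the 4 the 2 identifiers with the smallest root mean square difference of centred log2 CPM over the 30 libraries. The rat numbers of the labels were taken as the same animal in the 3 tissues. Across windows, libraries of 1 rat had deviations from their group means with a median r of 0.021 for cortex and hippocampus, 0.11 for thalamus and cortex and −0.056 for thalamus and hippocampus. Replicate libraries differed by more than sampling noise, with a chi-square per degree of freedom of at least 2.05. The 60 deposited count columns of promoters and gene bodies all belonged to a labelled sample. Intervals of a single library cover counting error only.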

Additional observations from a re-analysis of the deposited data

Results flagged for a closer look

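Among the 24 groups of 5 rats (4 windows, 3 tissues, sham and TBI), 4 held a library far from the other 4 by Dixon's test at 95%, where chance gives about 1 in 20 groups. The groups of the pair nearly repeat each other, so the 24 are not all separate observations. All 4 concerned ENSRNOG00000023687. In cortex, sham rat 1 had 60.7 CPM and the other sham rats 8.74 to 13.4 CPM, and TBI rat 10 had 123 CPM against 7.02 to 19.3 CPM. In hippocampus, sham rat 5 had 20.7 CPM against 4.14 to 6.54 CPM, and TBI rat 9 had 14.4 CPM against 1.77 to 4.74 CPM. No thalamus group of the 4 windows held such a library.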

How the results depend on the processing

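The signs of the thalamus fold changes of the 4 windows held under each of the 14 alternatives. Leaving out 1 rat at a time gave −1.13 to −0.68, −1.12 to −0.68, 0.97 to 1.43 and −1.02 to −0.74 in table order. As the windows were taken as chosen on this contrast, these signs and ranges are a description only. With a dispersion common to all rows, the exact test called 3 windows in thalamus, 25 in cortex and 156 in hippocampus. The thalamus count describes the table and is no test of the 4 windows, which were taken as chosen on that contrast. Thalamus over cortex had 3555 calls, 1793 with library totals and 1858 without rats 1 and 10, and hippocampus over cortex had 11327 and, without these rats, 6968. With library totals, 7879 windows were higher and 2314 lower in thalamus than in hippocampus (5432 and 5083 with TMM), and 2329 higher and 7773 lower in hippocampus than in cortex (5487 and 5840), with medians over all windows of 0.33 and −0.32.

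In cortex, ENSRNOG00000023687 ranged from −0.92 to 2.13 when 1 rat was left out, and DESeq2 gave no p for it. In hippocampus it ranged from −1.45 to −0.19. ENSRNOG00000004208 ranged from −0.46 to −0.14 in cortex and from −1.05 to −0.36 in hippocampus, and ENSRNOG00000050808 from −1.08 to −0.49 and from −1.03 to −0.50. For ENSRNOG00000023687, hippocampus over cortex ranged from −2.39 to −0.81. Its thalamus over cortex value ranged from −2.75 to −1.65 and was called each time. The tissue values of the pair lay near 0 and changed sign. Leaving out 1 rat gave −0.073 to 0.15 (ENSRNOG00000050808) and −0.046 to 0.18 (ENSRNOG00000050740) for thalamus over cortex, and for ENSRNOG00000050740 −0.025 to 0.17 for thalamus over hippocampus and −0.11 to 0.012 for hippocampus over cortex. ENSRNOG00000050808, thalamus over cortex, was −0.016 with DESeq2 and −0.053 without rats 1 and 10, and ENSRNOG00000050740 −0.031 without these rats. ENSRNOG00000004208, hippocampus over cortex, was −0.028 with library totals, and its thalamus over hippocampus value was called in 1 of 10 such fits (−0.57, edgeR adjusted p = 0.0269, without rat 5). With the rat as a replicate block, ENSRNOG00000050740 was 0.028 for hippocampus over cortex, ENSRNOG00000023687 was −2.0 (adjusted p = 0.00172) and −1.37 (adjusted p = 0.0107) against cortex, the counts of calls were 3904, 10915 and 11515, and no call of the 4 windows changed. TBI and sham rats share no number, so that comparison has no pairing. The cause of these shifts was not tested. Counts of ENSRNOG00000023687 went down to 3 reads per library, which limits its precision.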
